A study of Mus musculus with 7 samples.

Results

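Endometrial epithelium of ovariectomized mice given tamoxifen together with alpelisib for 28 days was compared with that of mice given vehicle. The comparison uses 3 of the 7 RNA sequencing libraries of the study, namely 2 of tamoxifen plus alpelisib (called the combination here) and the only vehicle library, chosen by the treatment named in their labels, and covers all genes. Of 24353 genes in the table, 12314 reached an FPKM of 1 in at least 1 library and were tested. FPKM, the number of sequenced fragments per kilobase of a transcript after scaling for library size, is the level used throughout, and differences are in log2(FPKM + 1) with the standard error (SE) of the fit. All animals were C57BL/6 females whose ovaries had been removed at 6 to 7 weeks of age, so that every group lacked ovarian estrogen. The vehicle group, labelled ED, received no hormone. The tamoxifen group received tamoxifen at 0.5 mg per day under the skin in peanut oil, and the combination group received the same dose of tamoxifen and alpelisib at 30 mg/kg per day by mouth. A total of 18 mice were randomized, 6 per arm. Each treated library is labelled with a mouse number, whereas the label of the vehicle library has none, and the sources used here do not say whether it holds a single mouse or several. A further 2 libraries, from mice with an estradiol pellet of 0.01 mg, entered the choice of genes to test and the estimate of the spread. They were not a group compared, and a few of their values are given for reference. The 2 tamoxifen libraries served as the second comparison. No library of alpelisib alone was analysed here, so that the effect of alpelisib is seen only on top of tamoxifen.

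Tamoxifen binds the estrogen receptor and acts as an antagonist in breast and as a partial agonist in uterus, where estrogen makes the epithelium divide and secrete. Alpelisib blocks PI3K alpha, the enzyme that passes signals from insulin, IGF and other growth factor receptors to AKT and mTOR. Active AKT keeps the FOXO transcription factors out of the nucleus, while mTOR promotes ribosome production and, through the SREBP factors, sterol and fatty acid synthesis. Loss of AKT signaling is therefore known to release FOXO target genes and to lower those of sterol synthesis and ribosome biogenesis.

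The values of the 2 combination libraries lay close together, with a median absolute difference of 0.0996 in log2(FPKM + 1) over the genes tested and 0.585% of genes at least 1 unit apart, against 0.188 and 1.88% for the 2 tamoxifen libraries and 0.2495 and 2.91% for the 2 estradiol libraries. The fragments behind the vehicle, tamoxifen and combination libraries, read from the lowest FPKM steps, came to about 16.2 M to 19.2 M each, against 8.55 M and 5.71 M for the estradiol libraries. The vehicle library has no replicate, and its spread was taken from the other groups, the estradiol libraries included. Each value against vehicle therefore rests on 1 library, and a peculiarity of that library cannot be told apart from the effect of treatment. Epithelial markers were abundant in all 3 conditions, with a summed FPKM over 13 genes of 7514 with vehicle, 5245 and 7035 with tamoxifen and 7102 and 7682 with the combination, and 2 were higher (Krt7 and Ehf) and 2 lower (Cdh1 and Krt18) than vehicle, or 1 and 0 without either combination library. Sums of markers are over all those in the table, tested or not. Markers of stroma summed to 312 with vehicle and to 183 and 189 with the combination, with 10 of 13 lower and 1 (Fbln1) higher. Those of smooth muscle summed to 78.6, against 24.0 and 25.7, with 6 of 7 lower. Those of endothelium summed to 26.7, against 2.74 and 3.68, with 6 of 9 lower and the defining gene Cldn5 listed at 0 in both combination libraries. No marker of T and NK cells was abundant enough to test. In such bulk samples fewer cells of a type and less RNA per cell cannot be told apart.

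With the combination, 1619 genes were higher and 2680 lower than with vehicle at an adjusted p under 0.05, and the median difference over all genes was -0.15. These are 13.1% and 21.8% of the genes tested, together 34.9%. With median-of-ratios scaling, which moves that median to 0.00, the split was 2230 higher and 2096 lower, so that the excess of lower genes depends on the scaling. Directly against tamoxifen alone, 853 genes (6.93%) were higher and 592 (4.81%) lower, together 11.7%, with a median of -0.03. For the side by side values, tamoxifen against the same vehicle library gave 1838 higher (14.9%) and 2969 lower (24.1%), together 39%, with a median of -0.12. Without combination library 1 or 2 the count against vehicle fell from 4299 to 1900 or 1977, and that against tamoxifen from 1445 to 18 or 14. Without tamoxifen library 1 or 2 it was 301 or 692. No gene that kept its call changed direction. In no pathway list described below did more than 2 members stay called against tamoxifen without combination library 1 or 2, and the calls given below stand beside their adjusted p without either library.

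**Figure D1:**
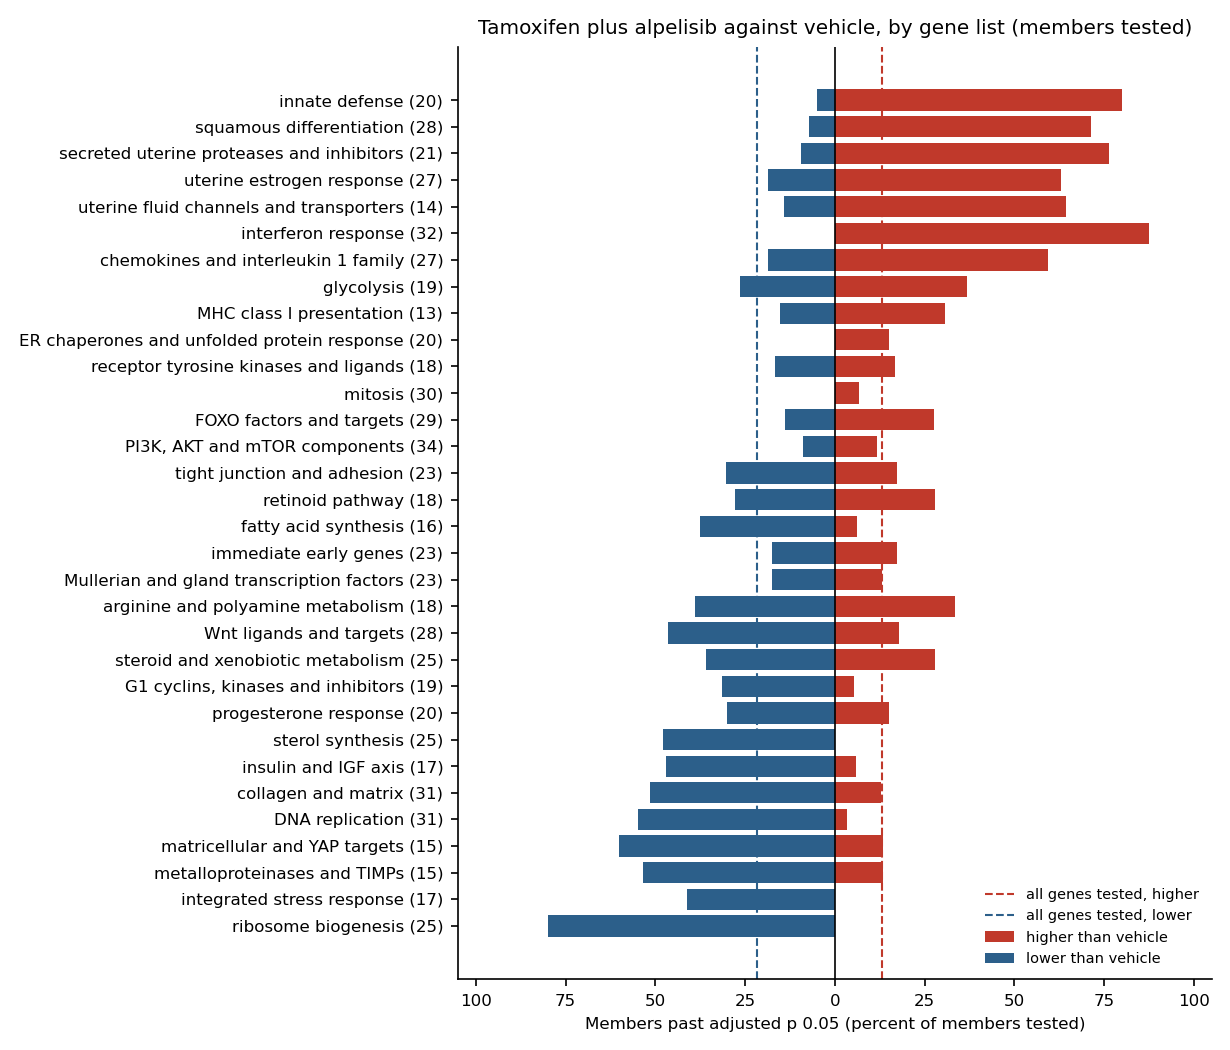
Share of the members of each gene list, in percent of those tested, that were higher (right) or lower (left) at an adjusted p under 0.05 in the combination against vehicle, with the number tested in parentheses and the shares over all genes tested (13.1% and 21.8%) as dashed lines. Interferon response genes stand to the right with 28 of 32 members and squamous differentiation genes with 20 of 28, while ribosome biogenesis genes stand to the left with 20 of 25.

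Among genes within the naming limits given in the processing section, the largest increases over vehicle included Klk1, Arg1, Prss29 and Pglyrp1. Klk1, a tissue kallikrein that cleaves kininogen, stood at 57.0 FPKM with vehicle, 9358 and 17316 with tamoxifen and 11343 and 12522 with the combination. The difference from vehicle was 7.68 ± 0.42 (adjusted p = 0.000119), and that from tamoxifen was -0.10 ± 0.35 (adjusted p = 0.892). The vehicle library was far below all 4 treated libraries, whose values overlapped. Arg1, the arginase that splits arginine into ornithine and urea, was at 3.998 FPKM with vehicle, 566 and 715 with tamoxifen and 851 and 864 with the combination, a difference from vehicle of 7.42 ± 0.30 (adjusted p = 6.28e-05). Prss29, a serine protease of uterine glands, was at 0.512 FPKM with vehicle, 198 and 277 with tamoxifen and 191 and 209 with the combination (7.05 ± 0.23, adjusted p = 3.37e-05). Pglyrp1, which binds bacterial peptidoglycan, was at 9.40 FPKM with vehicle, 583 and 887 with tamoxifen and 767 and 835 with the combination (6.27 ± 0.34, adjusted p = 0.000115). None of these 4 genes differed from tamoxifen past the threshold. The other genes among the 12 largest increases were Klk1b27, Sprr2d, Aoc1, Il1a, Spink12, Mmp7, Uox and Cyp21a1, with differences from vehicle of 6.19 to 7.50. Of these, Klk1b27, Aoc1, Cyp21a1 (a steroid hydroxylase), Spink12 and Uox were between vehicle and tamoxifen, with no overlap of groups. Klk1b27, a kallikrein, was at 6.47 FPKM with vehicle, 2285 and 2814 with tamoxifen and 1307 and 1388 with the combination. It was -0.91 ± 0.17 against tamoxifen (adjusted p = 0.0238), a call not kept under every alternative run. Spink12 and Uox did not pass against tamoxifen (adjusted p = 0.0603 and 0.0874). Aoc1, which oxidizes diamines, was at 2.01 FPKM with vehicle, 613 and 644 with tamoxifen and 379.7 and 401 with the combination. For Aoc1 the difference from tamoxifen was -0.69 ± 0.14 (adjusted p = 0.0331) and for Cyp21a1 -0.64 ± 0.13 (adjusted p = 0.0278), and without either combination library these adjusted p ranged from 0.226 to 0.279. Several genes were listed at 0 with vehicle, so that no fold is given. Kap, an androgen-regulated secreted protein of kidney, had FPKM of 31.5 and 55.2 with tamoxifen and 64.1 and 70.5 with the combination (adjusted p = 0.000102 against vehicle).

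Among the largest decreases was Il17rb, the receptor chain for interleukin 25, at 121 FPKM with vehicle, 0.359 and 1.06 with tamoxifen and 0.940 and 1.05 with the combination, a difference from vehicle of -5.93 ± 0.26 (adjusted p = 7.17e-05). Timp3, an inhibitor of matrix metalloproteinases, was at 127 FPKM with vehicle, 1.80 and 1.81 with tamoxifen and 1.91 and 2.16 with the combination (-5.40 ± 0.15, adjusted p = 3.26e-05). Both were low in all 4 treated libraries and did not differ from tamoxifen past the threshold. Pla2g10, a secreted phospholipase, was at 52.7 with vehicle and at most 0.338 in any treated library (-5.44 ± 0.43, adjusted p = 0.000417). Tgfbi, an extracellular adhesion protein, was at 519.9 FPKM with vehicle, 5.10 and 5.35 with tamoxifen and 8.27 and 8.81 with the combination (-5.77 ± 0.16, adjusted p = 3.26e-05), and was slightly higher than with tamoxifen alone (0.62 ± 0.13, adjusted p = 0.0346, or 0.234 to 0.286 without a combination library). Other genes went further down than with tamoxifen. Ccl21a, a chemokine of lymphatic endothelium, was at 68.7 FPKM with vehicle, 2.67 and 5.84 with tamoxifen and 0.418 and 0.465 with the combination (-5.60 ± 0.50, adjusted p = 0.000609). Dpt, a dermal matrix protein of fibroblasts, was at 20.3 FPKM with vehicle, 0.973 and 1.32 with tamoxifen and 0.0372 and 0.0404 with the combination (-4.36 ± 0.17, adjusted p = 6.28e-05). Against tamoxifen these 2 were lower by -1.80 ± 0.41 and -1.04 ± 0.14 (adjusted p = 0.0404 and 0.00977, or 0.106 to 0.218 without a combination library). Against vehicle they moved with the stromal and endothelial markers given above. Against tamoxifen the stromal sum was higher, at 127 and 120 with tamoxifen beside the 183 and 189 with the combination (3 markers higher and 1 lower). Most of that rise came from Dcn, at 31.7 and 30.9 with tamoxifen and 86.8 and 93.1 with the combination. The median difference from tamoxifen over the 13 stromal markers tested was -0.18. The endothelial sum was 3.79 and 3.34 with tamoxifen (none higher and 2 lower). The part of these cells in the decreases was not tested. Mt3, Npl, Clec3b, Efhd1, Rbm24 and Ccl21c completed the 12 largest decreases within the same naming limits, at -5.38 to -4.21. Ccl21a and Ccl21c are near-identical, and the sources used here do not say how reads were divided between them.

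**Figure D2:**
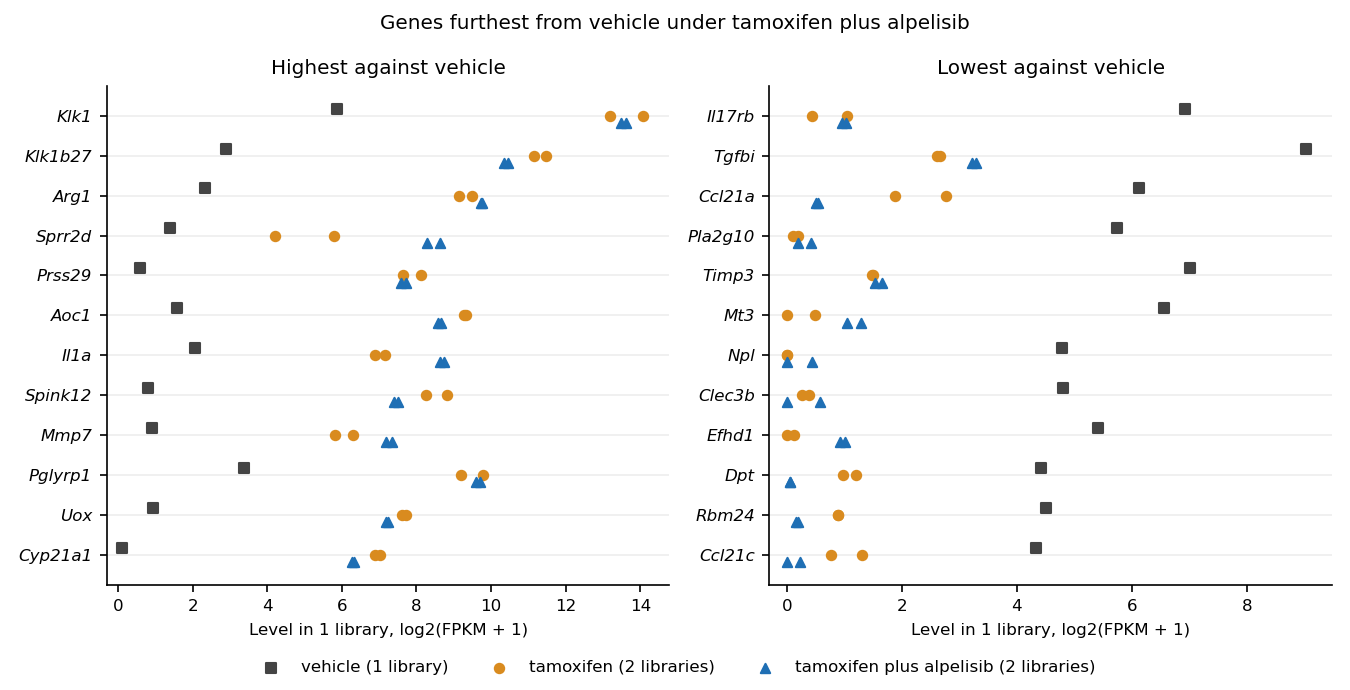
Level in each vehicle, tamoxifen and combination library, as log2(FPKM + 1). Shown are the 12 largest increases and the 12 largest decreases of the combination against vehicle among genes within the naming limits. In FPKM, Klk1 rises from 57.0 with vehicle to 11343 and 12522, and Il17rb falls from 121 to 0.940 and 1.05, with the tamoxifen libraries near the combination in both.

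Genes of the uterine estrogen response were higher with the combination than with vehicle in 17 and lower in 5 of the 27 members tested, with a median difference of 2.16 beside -0.15 over all genes. Tamoxifen alone gave 16 and 5, with a median of 2.13, and the direct comparison of the arms called 2 higher and 1 lower. Ltf, lactoferrin, the iron-binding secretion of estrogen-stimulated epithelium, was at 83.1 FPKM with vehicle, 2556 and 2539 with tamoxifen and 1733 and 1700.5 with the combination. It was 4.35 ± 0.30 above vehicle (adjusted p = 0.000273), and both combination libraries were below both tamoxifen libraries, without passing the test (-0.57 ± 0.25, adjusted p = 0.192). Cfb, complement factor B, was at 19.5 FPKM with vehicle, 831 and 731 with tamoxifen and 704 and 714 with the combination (5.11 ± 0.23, adjusted p = 7.93e-05). Greb1, a cofactor and target of the estrogen receptor, was at 11.1 FPKM with vehicle, 30.7 and 36.5 with tamoxifen and 29.5 and 32.4 with the combination (1.40 ± 0.23, adjusted p = 0.00589). All 4 treated libraries were above vehicle for these 3 genes. In the 2 estradiol libraries Ltf was at 1520 and 1324, Cfb at 263 and 277 and Greb1 at 11.6 and 16.1. Klk1, also on this list, was at 0.736 and 0.235 there, below vehicle. Being on the list therefore does not mean a rise with estradiol in these data. The receptors themselves did not pass the test against vehicle. Esr1, the estrogen receptor, was at 30.0 FPKM with vehicle, 22.4 and 20.6 with tamoxifen and 21.2 and 22.7 with the combination, a difference from vehicle of -0.44 with a 95% interval of -1.17 to 0.29. Pgr, the progesterone receptor, was at 15.2 FPKM with vehicle, 15.3 and 14.9 with tamoxifen and 11.5 and 11.4 with the combination, with -0.38 against vehicle (95% interval -0.74 to -0.02). The 5 lower members were Ramp3, Ccnd1, Myc, Wnt11 and Vegfa. Ccnd1, cyclin D1, was at 51.5 FPKM with vehicle, 9.61 and 7.75 with tamoxifen and 9.27 and 11.04 with the combination (-2.24 ± 0.19, adjusted p = 0.000518), and the treated arms overlapped. Ramp3, a receptor accessory protein chosen after its values were seen, was near vehicle with tamoxifen and close to 0 with the combination, at 3.77 FPKM with vehicle, 2.87 and 2.52 with tamoxifen and 0.106 and 0 with the combination. It was lower than vehicle (adjusted p = 0.000598) and lower than tamoxifen (adjusted p = 0.00405, or 0.0616 to 0.0661 without a combination library).

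Secreted proteases and their inhibitors showed 16 higher and 2 lower (Spink8 and Wfdc2) of 21 members, with a median of 2.61, and 13 or 14 stayed higher and 0 lower without combination library 1 or 2. Klk1b21 and Klk1b24, further kallikreins, were at 867 and 937 and at 354 and 368 with the combination, against 15.1 and 8.73 with vehicle (5.81 ± 0.23 and 5.22 ± 0.20). With tamoxifen alone they were higher, at 1089 and 1377 and at 475 and 611, without passing the test (adjusted p = 0.189 and 0.0731). The Klk1b genes are close copies, and reads may be shared among them. Spink12, an inhibitor of serine proteases, was at 0.757 FPKM with vehicle, 303 and 449 with tamoxifen and 167 and 179 with the combination (6.63 ± 0.35, adjusted p = 0.00011). Mmp7, matrilysin, which cleaves matrix and prodefensins in epithelium, went the other way between the treated arms, at 0.881 FPKM with vehicle, 54.9 and 78.1 with tamoxifen and 144 and 162 with the combination. Its difference from vehicle was 6.35 ± 0.34 (adjusted p = 0.000116) and from tamoxifen 1.21 ± 0.28 (adjusted p = 0.0429, or 0.207 to 0.262 without a combination library).

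Interferon response genes were higher than vehicle in 28 of 32 members and lower in none, with a median difference of 1.66. The other 4 (Ifit2, Ifi35, Mx2 and Bst2) did not pass. Without combination library 1 or 2 the count was 22 or 20. Tamoxifen alone gave 26 of 32, and the direct comparison of the arms called 4 higher (Ifit1, Ifit3, Rsad2 and Gbp3) and 2 lower, and none of these stayed called without any 1 library of either treated arm. Irf7, the transcription factor that amplifies interferon production, was at 1.63 FPKM with vehicle, 29.9 and 41.0 with tamoxifen and 47.9 and 46.5 with the combination, 4.20 ± 0.30 above vehicle (adjusted p = 0.00031). Rtp4, an interferon-induced receptor chaperone, was at 1.24 FPKM with vehicle, 14.7 and 16.5 with tamoxifen and 16.5 and 17.2 with the combination (2.99 ± 0.15, adjusted p = 0.000102), and Oasl2, an oligoadenylate synthetase-like protein, was at 3.03 FPKM with vehicle, 16.4 and 17.5 with tamoxifen and 21.9 and 22.5 with the combination (2.52 ± 0.18, adjusted p = 0.000313). In each of these the vehicle library was the lowest, and the treated arms did not differ past the threshold. Isg15, a ubiquitin-like modifier, was at 3.31 FPKM with vehicle, 20.1 and 30.5 with tamoxifen and 32.8 and 42.6 with the combination (3.15 ± 0.28, adjusted p = 0.000591). Oas1a, an enzyme that senses double-stranded RNA, was at 3.56 FPKM with vehicle, 26.5 and 34.6 with tamoxifen and 24.3 and 28.2 with the combination (2.58 ± 0.21, adjusted p = 0.000484). Gbp3, a guanylate-binding GTPase, was at 1.35 FPKM with vehicle, 4.91 and 5.47 with tamoxifen and 8.003 and 8.66 with the combination (1.99 ± 0.15, adjusted p = 0.00038). The last 3 genes were chosen after their values were seen, as members of high difference whose promoters hold the motif described next.

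The interferon-stimulated response element, bound by transcription factors that interferon signaling activates, was searched as GAAANNGAA on both strands of RefSeq promoter windows (GRCm38.p6, 250 bases before to 50 after the gene start). Matches may overlap one another. Of the 23 interferon members with a window, 14 held a match, beside 8.51% of the 9412 tested genes with a window and 8.56% of all 32851 windows. The stretches around the matches of 3 members are shown on the strand of the gene, 5′ to 3′, with the matched bases in capitals. These members were chosen for holding a match, so that the letters they share follow from the choice. Bst2, with 2 matches, did not pass against vehicle (adjusted p = 0.0586).
Isg15: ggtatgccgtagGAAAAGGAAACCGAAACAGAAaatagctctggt
Oas1a: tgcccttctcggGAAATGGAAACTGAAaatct
Gbp3: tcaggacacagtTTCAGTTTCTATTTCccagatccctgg
The Isg15 stretch lies at chr4:156200864-156200908 on the - strand and ends 46 bases before the start, and it holds 3 overlapping matches. The Oas1a stretch, with 2 matches, lies at chr5:120907526-120907557 on the - strand, directly before the start. In the Gbp3 stretch, at chr3:142559988-142560026 on the + strand, the 2 matches are on the opposite strand. A match describes the letters only, and binding was not measured.

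Genes of innate defense were higher in 16 and lower in 1 (Lyz2) of 20 members, with a median of 3.07, while tamoxifen alone gave 10 and 1. Pigr, the receptor that carries IgA across epithelium, was at 5.41 FPKM with vehicle, 358 and 321 with tamoxifen and 221 and 218 with the combination (5.11 ± 0.21, adjusted p = 6.28e-05). Reg3g, an antibacterial lectin, was at 0.0939 FPKM with vehicle, 9.40 and 12.7 with tamoxifen and 10.3 and 9.69 with the combination (3.33 ± 0.22, adjusted p = 0.000228). Both were high in all 4 treated libraries. The 6 members higher than with tamoxifen were Slpi, Defb1, S100a8, S100a9, Chil1 and Cd14. S100a8, which with S100a9 forms the calcium-binding calprotectin of neutrophils and squamous epithelium, was listed at 0 with vehicle and in both tamoxifen libraries and stood at 6.98 and 7.37 with the combination (adjusted p = 0.000226 against vehicle and 0.00156 against tamoxifen, kept at 0.0403 to 0.0432 without a combination library). S100a9 was at 0.385 FPKM with vehicle, 2.996 and 6.32 with tamoxifen and 40.2 and 43.2 with the combination, 2.98 ± 0.53 above tamoxifen (adjusted p = 0.0216, or 0.138 to 0.151 without a combination library). Both genes are also among the 10 neutrophil markers, whose summed FPKM was 0.82 with vehicle, 54.5 and 62.7 with tamoxifen and 79.2 and 83.7 with the combination. Itgam, an integrin chain of myeloid cells, made up most of the sums with tamoxifen and went the other way between the treated arms, at 0.406 FPKM with vehicle, 51.5 and 56.0 with tamoxifen and 31.7 and 33.0 with the combination (-0.71 ± 0.13 against tamoxifen, adjusted p = 0.0238, or 0.195 to 0.215 without a combination library). Of these markers only S100a8, S100a9, Itgam and Stfa2l1 reached an FPKM of 1 in any library. Stfa2l1 did so in 1 estradiol library alone, at 1.70, and was listed at 0 in all the others. The defining genes Csf3r, Cxcr2, Mpo, Retnlg and Ngp were below 1 in all 7 libraries, and Elane was listed at 0.

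Chemokines and the interleukin 1 family had 16 members higher and 5 lower (Cxcl12, Cxcl14, Cxcl15, Ccl2 and Ccl7) of 27, against 9 and 6 for tamoxifen alone, and 9 were higher and 1 lower in the direct comparison. Il1a, an epithelial alarm cytokine, was at 3.17 FPKM with vehicle, 117 and 141 with tamoxifen and 398 and 429 with the combination, and exceeded vehicle by 6.63 ± 0.21 (adjusted p = 3.37e-05) and tamoxifen by 1.68 ± 0.17 (adjusted p = 0.00529). Of the chemokines that attract neutrophils, Cxcl5, Cxcl3, Cxcl2 and Cxcl1 were higher with the combination than with vehicle or tamoxifen. The estradiol libraries, not tested against the combination, held Cxcl5 at a similar level, at 20.5 and 15.4 FPKM. For Cxcl3, Cxcl2 and Cxcl1 they were below both combination libraries. Cxcl5 was at 0.468 FPKM with vehicle, 0.497 and 0.786 with tamoxifen and 18.1 and 17.7 with the combination, 3.53 ± 0.18 above tamoxifen (adjusted p = 0.00156), and Cxcl3 was at 0.375 FPKM with vehicle, 0.194 and 0.146 with tamoxifen and 10.97 and 12.3 with the combination, 3.43 ± 0.15 above tamoxifen (adjusted p = 0.00156). These 2 calls were kept without either combination library, at 0.0403 to 0.0432. Cxcl2 was at 7.30 FPKM with vehicle, 7.16 and 16.1 with tamoxifen and 120.0 and 132 with the combination, 3.43 ± 0.36 above tamoxifen (adjusted p = 0.00563), and Cxcl1, chosen after its values were seen, was at 26.2 FPKM with vehicle, 27.8 and 64.0 with tamoxifen and 250.3 and 291 with the combination, 2.65 ± 0.38 above tamoxifen (adjusted p = 0.0114). For Il1a, Cxcl2 and Cxcl1 the adjusted p without a combination library was 0.0681 to 0.108. Against vehicle, the differences of Cxcl5, Cxcl3, Cxcl2 and Cxcl1 were 3.69, 3.20, 3.94 and 3.32 (adjusted p from 0.000146 to 0.00328). Ppbp, the platelet basic chemokine, took another course, at 59.3 FPKM with vehicle, 0.717 and 2.29 with tamoxifen and 32.3 and 31.7 with the combination. It was 3.80 ± 0.31 above tamoxifen (adjusted p = 0.00355, or 0.0616 to 0.062 without a combination library), with a difference from vehicle of -0.87 (95% interval -1.78 to 0.04). Members of the IL-36 branch did not differ from tamoxifen past the threshold. Il1f6, also known as Il36a, was at 1.23 FPKM with vehicle, 96.6 and 114 with tamoxifen and 98.8 and 120.0 with the combination (5.62 ± 0.21, adjusted p = 4.95e-05), and Il1f9, also known as Il36g, was listed at 0 with vehicle and stood at 16.9 and 21.7 with tamoxifen and 25.5 and 29.5 with the combination. The receptors split. Il1r2, a decoy receptor, was at 0.260 FPKM with vehicle, 87.8 and 94.9 with tamoxifen and 82.3 and 81.2 with the combination (6.04 ± 0.30, adjusted p = 9.91e-05), whereas the signaling receptor Il1r1 was at 4.71 FPKM with vehicle, 40.7 and 40.1 with tamoxifen and 9.55 and 9.88 with the combination. Il1r1 was -1.95 ± 0.12 below tamoxifen (adjusted p = 0.00198, or 0.0554 to 0.0555 without a combination library) and still 0.91 ± 0.14 above vehicle (adjusted p = 0.00526, or 0.0497 to 0.0549).

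Squamous differentiation genes, the keratins and envelope proteins of stratified epithelium, were raised over vehicle in 20 and lowered in 2 of 28 members, with a median of 2.74, and without combination library 1 or 2 in 20 or 19 and 2. Directly against tamoxifen, 19 of the 28 were higher and none lower, with a median of 1.35 beside -0.03 over all genes. The count was 16 or 18 without tamoxifen library 1 or 2, and 2 or 1 without combination library 1 or 2. Krt14, a keratin of basal cells, was at 10.6 FPKM with vehicle, 32.5 and 37.5 with tamoxifen and 215 and 216 with the combination, 4.22 ± 0.17 above vehicle (adjusted p = 6.28e-05) and 2.59 ± 0.14 above tamoxifen (adjusted p = 0.00156, kept at 0.0478 to 0.0488 without a combination library). Krt6a, a keratin of activated and wounded epithelium, was at 0.793 FPKM with vehicle, 24.4 and 23.6 with tamoxifen and 65.2 and 69.7 with the combination (1.45 ± 0.13 above tamoxifen, adjusted p = 0.00432). Krt16, its usual partner, was at 0.179 FPKM with vehicle, 0.493 and 0.757 with tamoxifen and 11.4 and 12.9 with the combination (3.02 ± 0.20 above tamoxifen, adjusted p = 0.00256). For all 3 keratins the groups were ordered vehicle, tamoxifen and combination without overlap. Among the small proline-rich proteins of the cornified envelope, Sprr2d was at 1.62 FPKM with vehicle, 17.4 and 54.8 with tamoxifen and 312 and 392.4 with the combination, 7.06 ± 0.60 above vehicle (adjusted p = 0.000531) and 3.45 ± 0.49 above tamoxifen (adjusted p = 0.0113). Sprr2e and Sprr2b, at 151 and 165 and at 129 and 166, were 4.0 ± 0.60 and 3.53 ± 0.42 above tamoxifen (adjusted p = 0.0129 and 0.00713). The Sprr2 genes are near copies, and reads may be shared among them. Sprr1a, of the same family and chosen after its values were seen, passed neither test, at 312 FPKM with vehicle, 33.6 and 94.5 with tamoxifen and 222 and 253 with the combination (adjusted p = 0.675 against vehicle and 0.0591 against tamoxifen). Without a combination library, the adjusted p of Krt6a, Krt16, Sprr2d, Sprr2e and Sprr2b against tamoxifen ranged from 0.0457 to 0.11.

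Psca, a surface protein of stratified and urothelial cells, had the largest difference from tamoxifen among the genes named by the fixed rule, at 0.321 FPKM with vehicle, 0.408 and 1.96 with tamoxifen and 37.0 and 35.3 with the combination, or 4.18 ± 0.38 (adjusted p = 0.00423). Slurp1, a secreted keratinocyte protein, and Lce3a, a late envelope protein, were listed at 0 with vehicle. Slurp1 stood at 0.702 and 0.434 with tamoxifen and 15.1 and 19.1 with the combination (adjusted p = 0.00355 between the treated arms), and Lce3a at 0.810 and 2.57 and 10.9 and 15.6 (adjusted p = 0.00935). Without a combination library these 3 adjusted p ranged from 0.0548 to 0.0961. Not every squamous gene followed. Krt5 and Krt15, basal keratins, did not differ from tamoxifen past the threshold, Krt5 at 16.8 FPKM with vehicle, 321 and 271 with tamoxifen and 299.6 and 308 with the combination and Krt15 at 22.7 FPKM with vehicle, 165 and 158 with tamoxifen and 146 and 144 with the combination, with differences from tamoxifen of 0.04 and -0.16 (95% intervals -0.36 to 0.44 and -0.50 to 0.19). The 2 members lower than vehicle, named for that reason after their values were seen, were Krt17, at 277 FPKM with vehicle, 4.06 and 7.13 with tamoxifen and 20.8 and 22.6 with the combination, and Lor, at 18.7 FPKM with vehicle, 0.392 and 1.37 with tamoxifen and 1.52 and 1.35 with the combination, a major protein of the cornified envelope. Krt17 was nevertheless 1.82 ± 0.25 above tamoxifen (adjusted p = 0.00977, or 0.0925 to 0.107 without a combination library). The transcription factors Trp63 and Klf5 took different courses. Trp63, which specifies basal cells, was at 0.969 FPKM with vehicle, 1.38 and 1.66 with tamoxifen and 2.65 and 2.99 with the combination (0.96 ± 0.16 above vehicle, adjusted p = 0.0065, or 0.0518 without combination library 2). Klf5, an epithelial growth and differentiation factor, was at 70.7 FPKM with vehicle, 18.6 and 19.95 with tamoxifen and 55.7 and 54.9 with the combination, near vehicle (-0.35, 95% interval -0.74 to 0.04) and 1.48 ± 0.13 above tamoxifen (adjusted p = 0.00418, or 0.0687 to 0.0753). The 9 markers of basal and squamous cells, of which 8 were tested, summed to 54.9 with vehicle, 548 and 497 with tamoxifen and 736 and 747 with the combination.

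**Figure D3:**
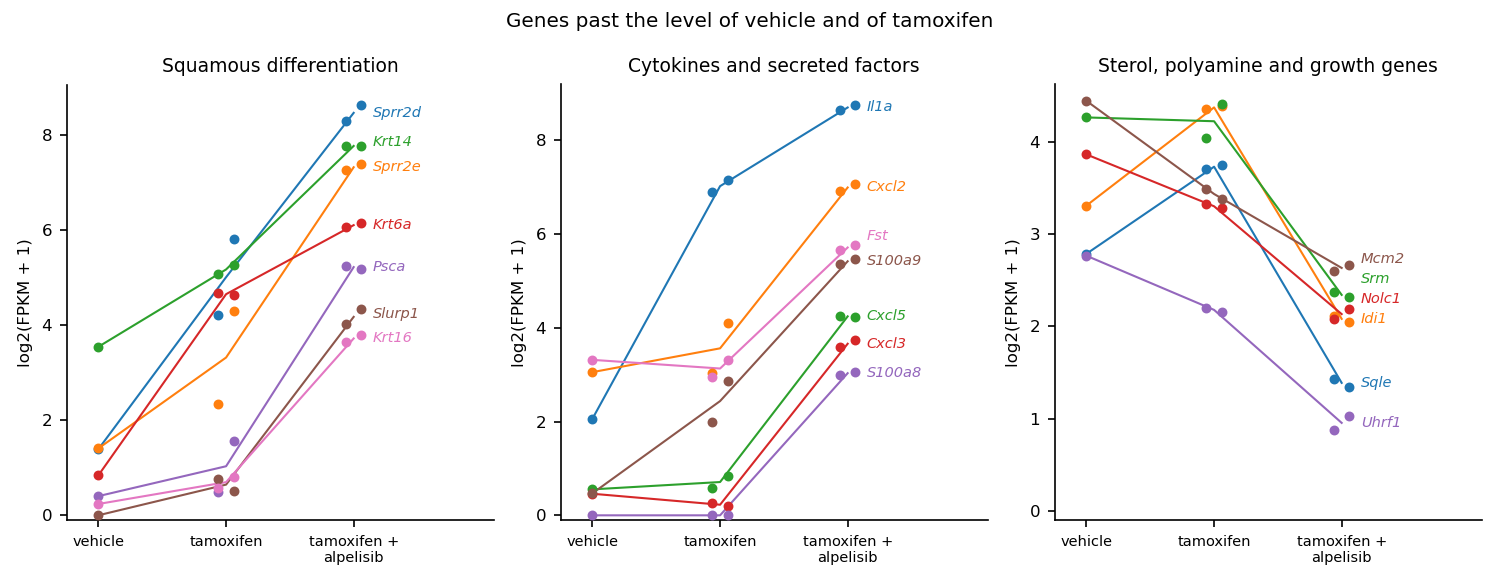
Level, as log2(FPKM + 1), for genes whose combination values lay beyond those of vehicle and of tamoxifen. Each vehicle, tamoxifen and combination library has 1 point, and a line runs through the group means. In FPKM, Krt14 stands at 10.6 with vehicle, 32.5 and 37.5 with tamoxifen and 215 and 216 with the combination, while Sqle falls below vehicle, to 1.70 and 1.53. Genes were chosen after their values were seen.

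Sterol synthesis genes were lower than with tamoxifen in 17 of 25 members and higher in none, with a median of -0.86, and in 9 or 11 without tamoxifen library 1 or 2. Tamoxifen alone had raised 9 and lowered 2 of them over vehicle, with a median of 0.40. Against vehicle the combination lowered 12 and raised none, with a median of -0.54. With median-of-ratios scaling that count was 12 lower and 2 higher, and without combination library 1 or 2 it was 5 or 6 lower. Sqle, squalene epoxidase, a flux-controlling enzyme of the pathway, was at 5.89 FPKM with vehicle, 12.04 and 12.5 with tamoxifen and 1.70 and 1.53 with the combination. It was -2.34 ± 0.12 against tamoxifen (adjusted p = 0.00156) and -1.40 ± 0.15 against vehicle (adjusted p = 0.00114). Idi1, which isomerizes isopentenyl diphosphate, was at 8.90 FPKM with vehicle, 19.5 and 19.9 with tamoxifen and 3.32 and 3.14 with the combination, -2.29 ± 0.12 against tamoxifen (adjusted p = 0.00156) and -1.23 ± 0.15 against vehicle (adjusted p = 0.00206). For both the combination libraries were the lowest of the 5, and the calls against tamoxifen were kept at 0.0403 to 0.0471 without a combination library. Fdps, Cyp51 and Srebf2 were chosen after their values were seen. Fdps and Cyp51, a prenyl synthase and a demethylase, were near vehicle: Fdps was at 18.3 FPKM with vehicle, 53.5 and 56.6 with tamoxifen and 16.6 and 15.4 with the combination, and Cyp51 was at 4.74 FPKM with vehicle, 17.1 and 16.0 with tamoxifen and 5.97 and 5.61 with the combination. Their differences from vehicle were -0.18 and 0.24 (95% intervals -0.65 to 0.28 and -0.14 to 0.63), and those from tamoxifen -1.72 ± 0.16 and -1.37 ± 0.13 (adjusted p = 0.00423 and 0.00455). Srebf2, the transcription factor of the pathway, was at 29.2 FPKM with vehicle, 22.3 and 20.7 with tamoxifen and 13.3 and 13.6 with the combination, lower than vehicle by -1.06 (adjusted p = 0.00339). For Fdps, Cyp51 and Srebf2 the adjusted p against tamoxifen without a combination library was 0.0681 to 0.241. The synthase Hmgcs1 is listed at 0 in all 7 libraries and gives no value. The sterol regulatory element, searched as TCACNCCAC on both strands of the same windows, was found in none of the 18 members with a window and in 1.32% of tested genes, which says only that these letters are absent there.

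Ribosome biogenesis genes were lower than vehicle in 20 of 25 members and higher in none, with a median of -1.11. With median-of-ratios scaling 15 were lower, and without combination library 1 or 2 the count was 9 or 11. Tamoxifen alone lowered 10, with a median of -0.51, and the combination lowered 9 directly against tamoxifen. Nolc1, a nucleolar chaperone, was at 13.5 FPKM with vehicle, 9.01 and 8.69 with tamoxifen and 3.23 and 3.54 with the combination (-1.73 ± 0.15, adjusted p = 0.000556 against vehicle, and -1.17 ± 0.12, adjusted p = 0.0055 against tamoxifen). Nop58, a core protein of box C/D particles that guide methylation of ribosomal RNA, was at 61.3 FPKM with vehicle, 27.4 and 30.5 with tamoxifen and 16.4 and 16.8 with the combination (-1.82 ± 0.16, adjusted p = 0.000625 against vehicle). In both, vehicle was highest and the combination lowest, with no overlap. Srm, spermidine synthase, was lower with the combination than in either other group, at 18.2 FPKM with vehicle, 15.4 and 20.2 with tamoxifen and 4.16 and 3.97 with the combination, with -1.92 ± 0.22 against vehicle (adjusted p = 0.00145) and -1.88 ± 0.18 against tamoxifen (adjusted p = 0.00441). The adjusted p of Nolc1, Nop58 and Srm against tamoxifen without a combination library was 0.0667 to 0.202.

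Genes of DNA replication and of mitosis took different courses. DNA replication genes were lower than vehicle in 17 and higher in 1 of 31 members, with a median of -0.76, against 14 and 2 with tamoxifen alone, and 11 or 13 stayed lower without combination library 1 or 2. Uhrf1, which maintains DNA methylation at replication forks, was at 5.79 FPKM with vehicle, 3.58 and 3.46 with tamoxifen and 0.841 and 1.03 with the combination, -1.81 ± 0.16 against vehicle (adjusted p = 0.000568) and -1.22 ± 0.13 against tamoxifen (adjusted p = 0.00554). Mcm2 and Mcm3, subunits of the replicative helicase, were at 20.7 FPKM with vehicle, 10.2 and 9.41 with tamoxifen and 5.07 and 5.33 with the combination, and at 16.9 FPKM with vehicle, 5.54 and 4.80 with tamoxifen and 2.94 and 3.096 with the combination, respectively (adjusted p = 0.000514 and 0.00031 against vehicle). The single higher member was Rrm1, a subunit of ribonucleotide reductase named for that reason after its value was seen, at 10.1 FPKM with vehicle, 22.7 and 21.5 with tamoxifen and 18.6 and 20.3 with the combination (0.88 ± 0.15, adjusted p = 0.00718, or 0.0528 to 0.0709 without a combination library). Mitosis genes were higher than vehicle in 18 of 30 members with tamoxifen alone and in 2 with the combination, Mad2l1 and Ccnb1, and none was lower. Without either combination library 1 stayed higher than vehicle, and Ccnb1, at an adjusted p of 0.043, did not pass (adjusted p from 0.121 to 0.201). Directly between the treated arms 13 of the 30 were lower with the combination, with a median of -0.67. That count was 1 or 4 without tamoxifen library 1 or 2, and 0 without either combination library. Bub1b, a spindle checkpoint kinase, was at 1.80 FPKM with vehicle, 2.58 and 2.17 with tamoxifen and 0.952 and 0.940 with the combination (-0.79 ± 0.14 against tamoxifen, adjusted p = 0.0194). Birc5, survivin, chosen after its values were seen, was at 1.60 FPKM with vehicle, 5.12 and 7.26 with tamoxifen and 2.21 and 2.26 with the combination (-1.14 ± 0.20 against tamoxifen, adjusted p = 0.022). Mki67, the proliferation marker, was at 1.17 FPKM with vehicle, 3.65 and 2.85 with tamoxifen and 0.911 and 1.13 with the combination, with -1.07 against tamoxifen (adjusted p = 0.059) and -0.11 against vehicle (95% interval -0.93 to 0.72). For Uhrf1, Mcm2, Mcm3, Bub1b and Birc5 the adjusted p against tamoxifen without a combination library was 0.0753 to 0.256. Of the G1 genes, Ccnd2, cyclin D2, was at 20.1 FPKM with vehicle, 0.920 and 0.405 with tamoxifen and 0.234 and 0.240 with the combination (-4.09 ± 0.25, adjusted p = 0.000171). As a group, 6 of 19 members were lower and 1 (Cdkn2b) higher than vehicle, together near the 34.9% called over all genes tested. Fewer were called without either combination library.

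Transcripts of the PI3K, AKT and mTOR enzymes themselves showed few differences, with 4 higher (Pik3cb, Inpp5d, Mlst8 and Ddit4) and 3 lower (Mtor, Rps6kb1 and Eif4e) of 34 members, with a median of 0.04, a smaller share than that of all genes. With median-of-ratios scaling the counts were 9 and 1, and without either combination library 2 and 1. Pik3ca, which encodes the target of alpelisib, was at 2.84 FPKM with vehicle, 2.74 and 2.31 with tamoxifen and 3.04 and 2.97 with the combination, a difference from vehicle of 0.06 (95% interval -0.40 to 0.52). This mRNA level does not measure the activity of the enzyme. Ddit4, an mTOR inhibitor induced by stress, was at 17.7 FPKM with vehicle, 165 and 240.3 with tamoxifen and 99.9 and 93.7 with the combination, 2.39 ± 0.29 above vehicle (adjusted p = 0.00194) and -1.03 ± 0.23 against tamoxifen (adjusted p = 0.0408, or 0.227 to 0.265 without a combination library). Eif4e, the cap-binding factor downstream of mTOR, was at 14.8 FPKM with vehicle, 8.27 and 9.15 with tamoxifen and 5.99 and 6.43 with the combination (-1.13 ± 0.18 against vehicle, adjusted p = 0.00561).

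FOXO factors and targets were higher than with tamoxifen in 13 and lower in none of 29 members, with a median of 0.77, whereas against vehicle 8 were higher and 4 lower (5 and 2 without either combination library), with a median of 0.06. Tamoxifen alone had 3 higher and 12 lower than vehicle. The 13 came to 2 or 9 without tamoxifen library 1 or 2, and to 0 without either combination library. Foxo1 itself, which represses the cell cycle and induces metabolic genes, was at 13.0 FPKM with vehicle, 6.03 and 5.74 with tamoxifen and 13.9 and 14.3 with the combination. It was 1.13 ± 0.13 above tamoxifen (adjusted p = 0.00644) and within -0.27 to 0.49 of vehicle (95% interval). Some targets likewise stood near vehicle. Pdk4, a kinase that blocks pyruvate oxidation, was at 2.70 FPKM with vehicle, 0.0940 and 0.256 with tamoxifen and 2.07 and 1.94 with the combination, and Sesn3, a sestrin, was at 8.02 FPKM with vehicle, 4.17 and 3.34 with tamoxifen and 7.98 and 8.88 with the combination, both chosen after their values were seen (1.36 ± 0.13 and 0.99 ± 0.17 above tamoxifen, adjusted p = 0.00487 and 0.0208). Others exceeded both groups. Cited2, a transcriptional coregulator, was at 20.3 FPKM with vehicle, 31.2 and 61.8 with tamoxifen and 125 and 129 with the combination, 2.59 ± 0.37 above vehicle (adjusted p = 0.00369) and 1.51 ± 0.31 above tamoxifen (adjusted p = 0.0296). Btg1, an antiproliferative protein, was at 32.1 FPKM with vehicle, 21.0 and 30.1 with tamoxifen and 68.3 and 70.5 with the combination, 1.09 ± 0.25 above vehicle (adjusted p = 0.0196, or 0.0904 to 0.0957 without a combination library). Txnip, which restrains glucose uptake, overlapped between the treated arms, at 43.6 FPKM with vehicle, 104.8 and 139.5 with tamoxifen and 126 and 129 with the combination (1.53 ± 0.22 above vehicle, adjusted p = 0.00376). Without a combination library the adjusted p of Foxo1, Pdk4, Sesn3, Cited2 and Btg1 against tamoxifen was 0.0682 to 0.193.

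The core FOXO recognition letters, TGTTTAC on either strand, were in the promoter windows of 5 of the 25 FOXO members with a window and in 3.24% of tested genes. The stretches of Txnip and of Btg1, chosen after its values were seen, are shown on the strand of the gene with the match in capitals, because these are the members with a match that were higher than vehicle.
Txnip: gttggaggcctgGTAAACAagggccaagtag
Btg1: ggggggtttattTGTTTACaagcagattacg
The Txnip stretch lies at chr3:96557824-96557854 and the Btg1 stretch at chr10:96616785-96616815, both on the + strand of GRCm38.p6 and taken from RefSeq. The Txnip match is on the opposite strand and reads GTAAACA. Of Txnip and Btg1, only Btg1 was also higher than with tamoxifen. Bcl2l11 and Bbc3 also hold a match and passed neither test (adjusted p = 0.108 and 0.350 against vehicle, and 0.221 and 0.459 against tamoxifen).

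The insulin and IGF axis, which feeds PI3K, was lower than vehicle in 8 and higher in 1 of 17 members (6 or 5 lower without combination library 1 or 2), with 9 lower and none higher for tamoxifen alone, and 5 were higher than tamoxifen. Irs2, the adaptor between insulin receptors and PI3K, was at 3.34 FPKM with vehicle, 0.227 and 0.160 with tamoxifen and 0.962 and 0.913 with the combination, -1.16 ± 0.16 against vehicle (adjusted p = 0.00293) and 0.70 ± 0.13 against tamoxifen (adjusted p = 0.0229). Igf1r, the IGF receptor, was at 6.41 FPKM with vehicle, 1.34 and 1.17 with tamoxifen and 3.34 and 2.79 with the combination, -0.87 ± 0.22 against vehicle (adjusted p = 0.0246, or 0.0766 to 0.123 without a combination library) and 0.85 ± 0.18 against tamoxifen (adjusted p = 0.0333). Igfbp3, which carries IGF, was at 31.9 FPKM with vehicle, 0.114 and 0.226 with tamoxifen and 2.83 and 3.15 with the combination, -3.05 ± 0.16 against vehicle (adjusted p = 0.000105) and 1.77 ± 0.13 against tamoxifen (adjusted p = 0.00336). In these 3 the combination lay part way between tamoxifen and vehicle, with no overlap of groups. The single member above vehicle was Igfbp2, another carrier, named after its value was seen, at 0.495 FPKM with vehicle, 0.324 and 1.26 with tamoxifen and 9.04 and 12.3 with the combination (2.95 ± 0.42, adjusted p = 0.0035). The adjusted p of the 4 genes against tamoxifen without a combination library was 0.0588 to 0.237.

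Several groups in which tamoxifen lowered members were partly higher again with the combination. Of the genes named below, Dusp4 had not been lowered by tamoxifen past the threshold (-0.33 against vehicle, adjusted p = 0.436). Matricellular proteins and YAP targets were lower than vehicle in 9 and higher in 2 of 15 members (3 or 4 lower without combination library 1 or 2), against 13 and 1 for tamoxifen alone, and 7 were higher than with tamoxifen. Ctgf, a matricellular growth factor and YAP target, was at 259 FPKM with vehicle, 3.66 and 7.58 with tamoxifen and 64.7 and 67.4 with the combination, 3.41 ± 0.31 above tamoxifen (adjusted p = 0.00418) and -1.95 ± 0.38 against vehicle (adjusted p = 0.0101, or 0.0542 without combination library 1). Thbs1, thrombospondin, was at 59.6 FPKM with vehicle, 3.58 and 4.55 with tamoxifen and 9.84 and 11.8 with the combination, 1.23 ± 0.16 above tamoxifen (adjusted p = 0.00831) and -2.36 ± 0.19 against vehicle (adjusted p = 0.000437). Cldn1, a claudin of the tight junction, was at 61.4 FPKM with vehicle, 0.587 and 0.750 with tamoxifen and 5.46 and 6.40 with the combination, 2.05 ± 0.13 above tamoxifen (adjusted p = 0.00256) and -3.17 ± 0.16 against vehicle (adjusted p = 0.000102). Vehicle was the highest of the 5 libraries and tamoxifen the lowest for these 3 genes. Among tight junction and adhesion genes as a group 4 were higher and 7 lower than vehicle of 23 (2 and 4 without either combination library), and 6 higher and 1 lower than tamoxifen. Metalloproteinases and their inhibitors were lower than vehicle in 8 and higher in 2 (Mmp7 and Plau) of 15 members (5 or 6 lower without combination library 1 or 2). Timp2 was at 23.04 FPKM with vehicle, 1.93 and 1.85 with tamoxifen and 4.84 and 4.12 with the combination (-2.14 ± 0.17 against vehicle, adjusted p = 0.000456, and 0.92 ± 0.14 against tamoxifen, adjusted p = 0.0142). Of the immediate early genes, which follow growth factor signals, 4 were higher and 4 lower than vehicle of 23. These counts, and those of the tight junction and adhesion genes against vehicle, are not far from the shares of all genes tested (13.1% and 21.8%). Against tamoxifen 6 immediate early genes were higher, beside 6.93% of all genes tested. Median-of-ratios scaling gave 7 higher and 3 lower than vehicle, and 1 or 0 stayed higher without combination library 1 or 2. Dusp4, a phosphatase of MAP kinases, was at 10.7 FPKM with vehicle, 6.31 and 10.9 with tamoxifen and 34.7 and 36.4 with the combination, above tamoxifen by 1.97 ± 0.25 (adjusted p = 0.00876) and above vehicle by 1.64 ± 0.31 (adjusted p = 0.00968, or 0.0527 without combination library 2). The adjusted p of Ctgf, Thbs1, Cldn1, Timp2 and Dusp4 against tamoxifen without a combination library ranged from 0.0489 to 0.153. Dcn, a stromal marker chosen after its values were seen, was also part way, at 144 FPKM with vehicle, 31.7 and 30.9 with tamoxifen and 86.8 and 93.1 with the combination, and its part in these values was not tested.

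**Figure D4:**
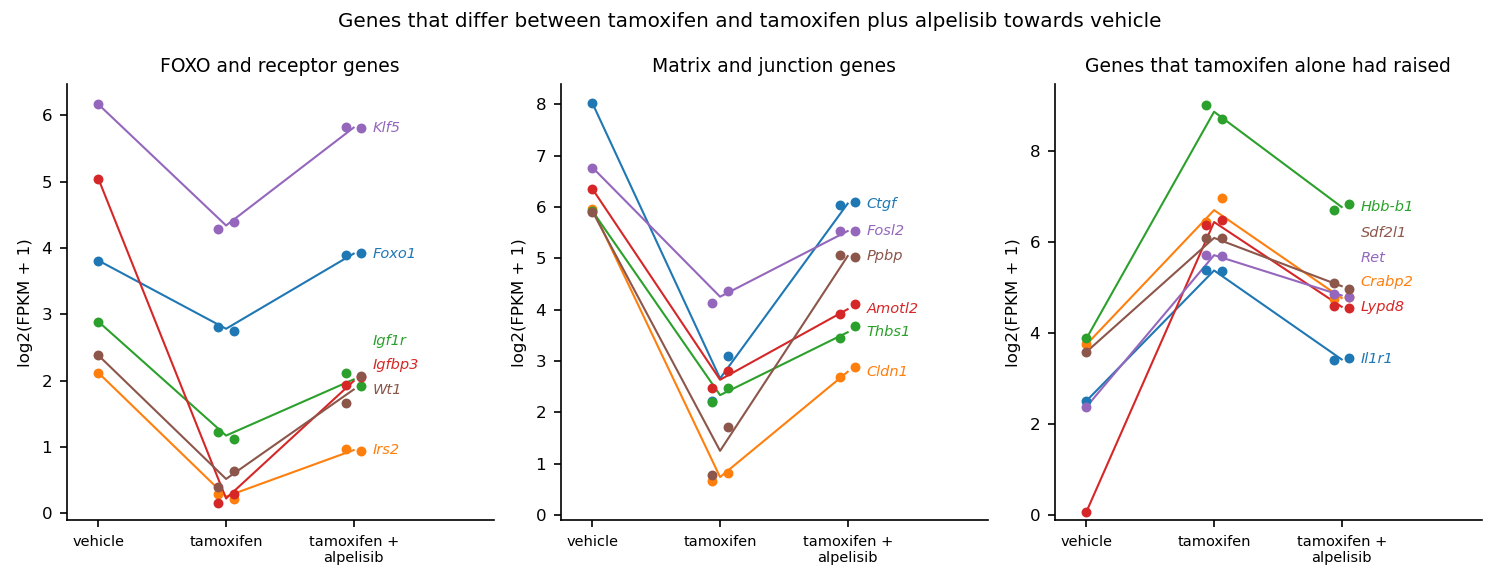
Level, as log2(FPKM + 1), in the vehicle, tamoxifen and combination libraries for genes whose combination values lay between tamoxifen and vehicle or near vehicle, with 1 point per library and a line through the group means. In FPKM, Foxo1 is at 13.0 with vehicle, 6.03 and 5.74 with tamoxifen and 13.9 and 14.3 with the combination, and Ctgf at 259, 3.66 and 7.58 and 64.7 and 67.4. Genes were chosen after their values were seen.

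Wnt ligands and targets were lower than vehicle in 13 and higher in 5 of 28 members (10 or 8 lower and 3 higher without combination library 1 or 2), and 1 was higher and 1 lower than with tamoxifen. Wnt7a, the ligand of uterine luminal epithelium that directs gland formation, was at 29.9 FPKM with vehicle, 3.48 and 4.77 with tamoxifen and 3.88 and 4.06 with the combination (-2.63 ± 0.21 against vehicle, adjusted p = 0.000437). Lgr5, a receptor of R-spondins on stem cells, was at 5.70 with vehicle and at most 0.0248 in any treated library (adjusted p = 0.000113). The treated arms overlapped for both genes. Collagen and matrix genes were lower than vehicle in 16 and higher in 4 of 31 members, as with tamoxifen alone (16 and 4), and 6 or 8 were lower without combination library 1 or 2. They moved with the stromal markers, whose part was not tested. Chaperones of the endoplasmic reticulum, which fold secreted proteins, were higher than vehicle in 12 of 20 members with tamoxifen alone and in 3 with the combination. Over all genes tested, 14.9% and 13.1% were higher, so that the count with the combination is near that share. Fewer were called without either combination library. Directly against tamoxifen 6 were lower, beside 4.81% of all genes tested. Sdf2l1, a cochaperone of that compartment, was at 11.03 FPKM with vehicle, 67.3 and 66.6 with tamoxifen and 33.3 and 30.0 with the combination, 1.44 ± 0.20 above vehicle (adjusted p = 0.00356) and -1.06 ± 0.17 against tamoxifen (adjusted p = 0.0153, or 0.128 to 0.17 without a combination library).

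Globin and mesothelial transcripts differed between the treated arms as well. Hbb-b1, a beta globin of red cells, was at 13.8 FPKM with vehicle, 513 and 416 with tamoxifen and 103 and 113 with the combination, 2.88 ± 0.21 above vehicle (adjusted p = 0.00031) and -2.09 ± 0.17 against tamoxifen (adjusted p = 0.00355, or 0.0649 to 0.0667 without a combination library). The summed FPKM of erythroid markers was 36.2 with vehicle, 1535 and 1116 with tamoxifen and 292 and 312 with the combination. Of 6 mesothelial markers, none passed against vehicle and 4 (Msln, Upk3b, Wt1 and Upk1b) were higher than with tamoxifen. Wt1, a transcription factor of mesothelium and stroma, was at 4.21 FPKM with vehicle, 0.318 and 0.559 with tamoxifen and 2.18 and 3.18 with the combination (1.35 ± 0.20 above tamoxifen, adjusted p = 0.0123, or 0.0724 to 0.115), and Upk3b was at 14.1 FPKM with vehicle, 6.73 and 7.40 with tamoxifen and 19.4 and 16.3 with the combination (1.22 ± 0.14, adjusted p = 0.00647, or 0.0753 to 0.0881). The part of blood or mesothelial cells in the other differences was not tested.

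**Figure D5:**
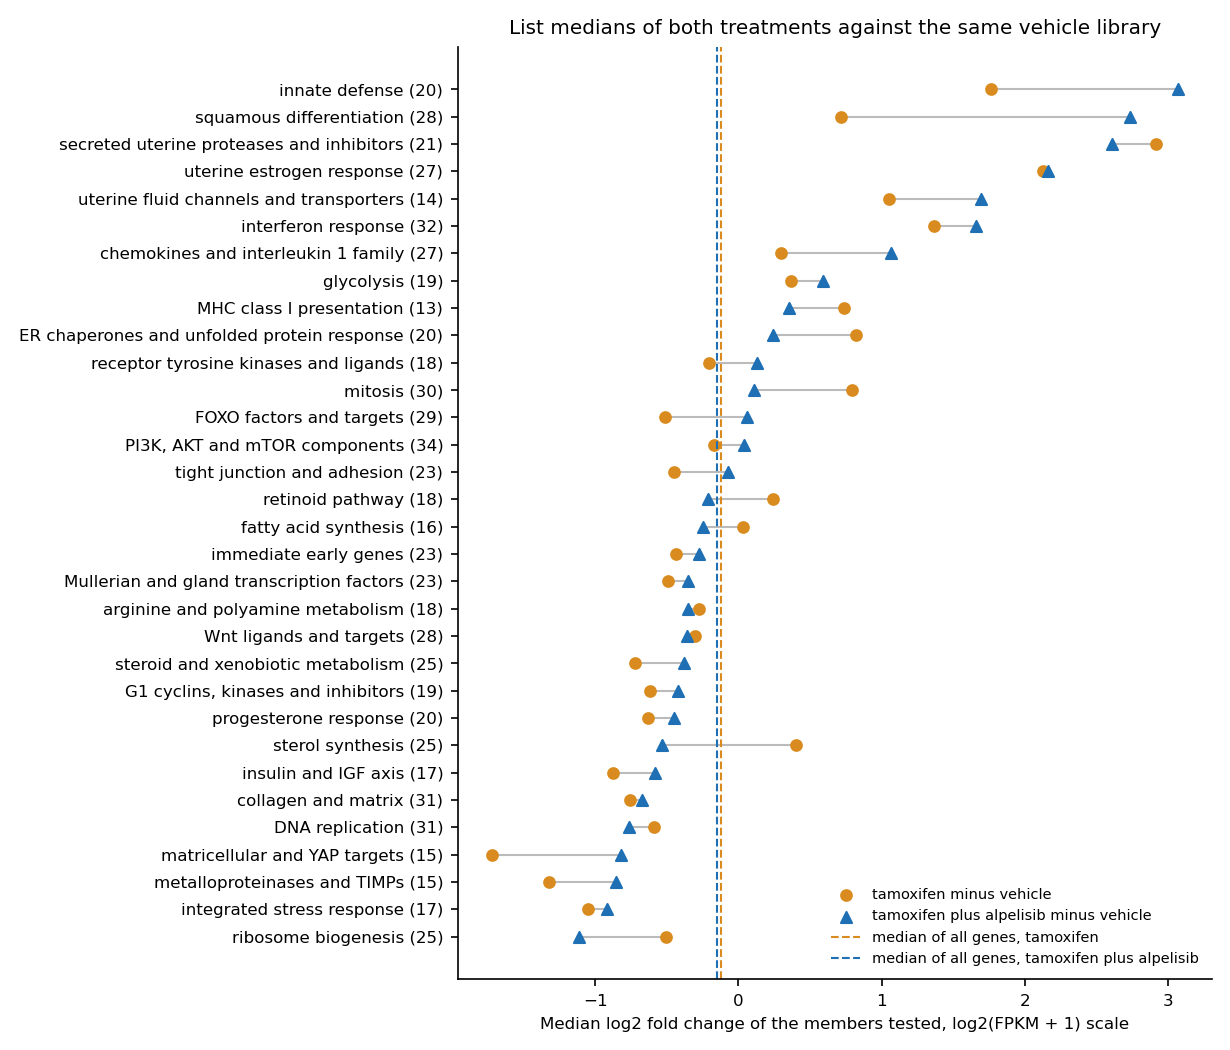
Median log2 difference over the tested members of each gene list, for tamoxifen against vehicle and for the combination against vehicle, with the median over all genes as a line for each. Both use the same vehicle library. Squamous differentiation moves from 0.71 with tamoxifen to 2.74 with the combination, and sterol synthesis from 0.40 to -0.54.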

How the data were processed

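Total RNA of endometrial epithelial cells was sequenced from TruSeq libraries, per the labels' protocols. The deposited table was taken to hold FPKM because its values are not whole and the submitters' processing notes name Cufflinks. Those notes also name CASAVA and Bowtie, and only a human build, so that no position is taken from the table. The sources used here do not say how reads of near-identical genes were assigned. Of 24353 symbols, 23697 matched the mouse annotation. A further 27 names that a spreadsheet turned into dates were tested but not named.

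Genes that reached 1 FPKM in any library were fitted with limma-trend 3.58.1 in R 4.3.3 on log2(FPKM + 1), as 4 group means over all 7 libraries, with 3 residual and 3.27 prior degrees of freedom. The pseudocount understates changes of low genes. Adjusted p are Benjamini-Hochberg values over 12314 genes with a threshold of 0.05. No scaling beyond FPKM was applied, the lone vehicle library was assumed to vary like the other groups, and p-values of 2 mice per arm rest on small numbers. The script was tested on simulated data. Lists, members and naming rules were chosen with earlier results of these data known. Genes named are the 12 highest and lowest differences from vehicle (adjusted p under 0.05, mean FPKM of at least 5, vehicle above 0), the 10 highest and lowest from tamoxifen (same limits, groups not overlapping), 5 genes listed at 0 with vehicle, the members of lowest p in each list (up to 4), and a fixed set; other genes, including those named only to spell out a small count, were chosen after their values were seen. A few genes that these rules name are not reported here. Alternatives were median-of-ratios and quantile scaling, other filters, a fold of 2, robust empirical Bayes, a pseudocount of 0.1, other sets of libraries, each replicate left out and a replicate block. Promoter windows are from RefSeq (GRCm38.p6). Python 3.11.15 with pandas 2.3.3 and matplotlib 3.10.9 made the summaries and figures.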

Additional observations from a re-analysis of the deposited data

How the results depend on the processing

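Median-of-ratios scaling turned the excess of lower over higher genes in both comparisons with vehicle, to 2230 higher and 2096 lower for the combination and 2508 and 2493 for tamoxifen. No named gene that was called changed direction under any alternative run. The 4299 genes called against vehicle became 2335 with a fold of at least 2 and 6985 with only the compared groups in the fit, and leaving out 1 library of a replicated group gave 1900 to 5096. The lone vehicle library could not be left out. The 1445 genes called against tamoxifen became 870 with no filter on low values and 555 with a fold of at least 2, and 14 to 1809 with 1 library left out. For tamoxifen against vehicle, 4807 became 2746 with a fold of at least 2, and 3466 to 5538 with 1 library left out. Without combination library 1 or 2, 44% or 45.5% of the calls against vehicle were kept, and 1.25% or 0.83% of those against tamoxifen. Of 208 named genes called against vehicle, 179 were kept under every alternative run, and of 116 called against tamoxifen, 7 (Sqle, Idi1, S100a8, Krt14, Cxcl5, Cxcl3 and Crabp1). Unadjusted, 5635 genes had a p under 0.05 against vehicle and 3586 against tamoxifen. The causes of these changes were not tested.

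Replicate numbers do not mark shared mice or batches in the labels, and with 2 numbers per group the pairing cannot be tested. The correlation of deviations between same-numbered combination and tamoxifen libraries was 0.273. With the replicate block, 3342 genes were called against vehicle, 589 against tamoxifen and 3996 for tamoxifen against vehicle.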

Other observations

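Channels and transporters that set the volume and salt of uterine fluid were higher than vehicle in 9 and lower in 2 of 14 members with the combination, and 8 higher and 2 lower without either of its libraries. Car12, a carbonic anhydrase, was at 3.004 FPKM with vehicle, 261 and 251 with tamoxifen and 118 and 122 with the combination. It was 4.91 ± 0.17 above vehicle (adjusted p = 4.65e-05) and -1.09 ± 0.14 against tamoxifen (adjusted p = 0.00882). Slc26a4, pendrin, an exchanger of chloride and bicarbonate, went the other way between the treated arms, at 0.0327 FPKM with vehicle, 2.05 and 1.64 with tamoxifen and 9.15 and 9.38 with the combination, with 3.31 ± 0.16 above vehicle (adjusted p = 9.44e-05) and 1.85 ± 0.13 above tamoxifen (adjusted p = 0.0031). Scnn1a, a subunit of the sodium channel that absorbs fluid, was at 15.5 FPKM with vehicle, 0.603 and 0.674 with tamoxifen and 1.34 and 1.45 with the combination (-2.79 ± 0.21 against vehicle, adjusted p = 0.000373). Fst, follistatin, which binds activin, was near vehicle with tamoxifen and above both with the combination, at 8.95 FPKM with vehicle, 6.68 and 8.98 with tamoxifen and 49.3 and 53.5 with the combination (2.58 ± 0.17 above tamoxifen, adjusted p = 0.0026). The adjusted p of Car12, Slc26a4 and Fst against tamoxifen without a combination library ranged from 0.0502 to 0.119.

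Arginine and polyamine genes split, with 6 higher and 7 lower than vehicle of 18 members (5 higher and 3 lower or 6 and 3 without combination library 1 or 2, and 4 lower with median-of-ratios scaling). The 6 higher members were Arg1, Arg2, Ass1, Sat1, Paox and Aoc1. Ass1, which makes the precursor of arginine, was at 7.47 FPKM with vehicle, 75.1 and 84.8 with tamoxifen and 49.9 and 53.9 with the combination (2.64 ± 0.21 above vehicle, adjusted p = 0.000442). Arg2, a mitochondrial arginase, was at 5.18 FPKM with vehicle, 4.19 and 4.18 with tamoxifen and 17.8 and 16.7 with the combination, and Paox, a polyamine oxidase, was at 14.2 FPKM with vehicle, 14.6 and 17.2 with tamoxifen and 40.8 and 39.1 with the combination, both chosen after their values were seen (1.81 ± 0.24 and 1.28 ± 0.16 above tamoxifen, adjusted p = 0.00948 and 0.00802, or 0.0961 to 0.103 without a combination library). Sat1, which acetylates polyamines and was also chosen after its values were seen, was at 125 FPKM with vehicle, 234 and 333 with tamoxifen and 524 and 601 with the combination (2.16 ± 0.35 above vehicle, adjusted p = 0.00539). The 7 lower members were Odc1, Srm, Sms, Azin1, Azin2, Oat and Asl. Retinoid pathway genes were higher than vehicle in 5 and lower in 5 of 18 members, beside 13.1% and 21.8% of all genes tested. They were higher than tamoxifen in 3 and lower in 4, beside 6.93% and 4.81%, with a median against tamoxifen of -0.03. Without either combination library these counts were 2 and 5 against vehicle and 0 and 1 against tamoxifen. Crabp2, a retinoic acid binding protein, was at 12.5 FPKM with vehicle, 85.7 and 123 with tamoxifen and 25.8 and 26.6 with the combination, -1.93 ± 0.26 against tamoxifen (adjusted p = 0.0091, or 0.0978 to 0.0981 without a combination library), and Crabp1, a related protein chosen after its values were seen, was at 1.60 FPKM with vehicle, 5.18 and 6.18 with tamoxifen and 0.117 and 0.104 with the combination, -2.58 ± 0.13 against tamoxifen (adjusted p = 0.00156, kept at 0.0403 to 0.0432 without a combination library). Of the integrated stress response genes, 7 of 17 members were lower and none higher than vehicle (5 or 6 lower without combination library 1 or 2). Phgdh, the first enzyme of serine synthesis, was at 13.3 FPKM with vehicle, 1.88 and 2.60 with tamoxifen and 0.859 and 0.792 with the combination (-2.97 ± 0.19 against vehicle, adjusted p = 0.000217).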
